A study of Mus musculus with 6 samples.

Results

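Fibroblast growth factors (FGFs) and their receptors were followed on Affymetrix arrays of the left ventricle of male C57BL/6 mice aged 10 weeks. The 10 genes are the secreted ligands Fgf16, Fgf9, Fgf18, Fgf1 and Fgf2, the intracellular family members Fgf12 and Fgf13, and the receptors Fgfr1, Fgfr2 and Fgfr3. Each was matched by its symbol to 1 probe set of the arrays, so they make 10 of the 19938 genes the platform annotation named. The 10 genes were chosen from the measured differences between the 2-methyl-2-thiazoline (2MT) and saline hearts, so their own differences are given below as a description without a p-value and support nothing. The treated group is 3 arrays of hearts from mice given 50 mg/kg of 2MT, a small thiazoline compound, under the skin and taken 4 h later. The other group is 3 arrays of hearts labelled as saline-treated, whose injection and timing the protocol text does not describe separately. The study asked how 2MT protects the heart. The labels do not say that each array is a separate animal, so every p-value reflects the variation among these 6 samples alone, and that variation may be technical.

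Secreted FGFs bind receptor tyrosine kinases at the cell surface together with heparan sulphate, and the receptors pass the signal to the RAS-ERK, phosphoinositide 3-kinase and phospholipase C pathways. Fgf1 and Fgf2 leave cells without a classical signal peptide, and Fgf16, Fgf9 and Fgf20 form one subfamily, through which the embryonic mouse heart muscle is driven to grow by way of Fgfr1 and Fgfr2. Fgf12 and Fgf13 are not secreted as growth factors. They belong to the FGF homologous factors, which bind the cytoplasmic tail of voltage-gated sodium channels.

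Values are the deposited log2 signals, on which 1 unit is a doubling. A gene was set aside as dim where its mean over the 6 arrays lay under the median probe set, 4.345, and 10547 genes were tested above it. The rule for calling a gene was an adjusted p under 0.05 in limma, adjusted by the Benjamini-Hochberg method over all genes tested. Of the 10547 genes 488 (4.63%) met it, and the 3 arrays of each group did not overlap in 21.1% of genes.

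Some arrays stood apart. Saline 3 lay alone on the second principal component, at -11.6 against -1.12 to 4.65 for the other arrays, and its mean of the 2 erythrocyte markers measured was 6.92, against 5.76 to 6.08 elsewhere. Saline 2 carried more signal of atrial myosin light chains, with Myl7 at 4.95 and Myl4 at 6.47, against 3.38 to 3.63 and 4.80 to 5.13 on the other 5 arrays. The dim Sln was also highest there, at 3.56 against 2.87 to 3.05. Nppa, the brightest of the atrial markers, was lowest there, at 9.91 against 10.21 to 10.59. Dkk3, dim at 4.09, lay within the 3.89 to 4.14 of the other arrays. The mean of the 5 atrial markers was 5.13 to 5.15 in 2MT hearts and 5.17 to 5.80 in saline hearts, with 3 of the markers dim and 0 of the 2 tested ones called in limma (0 also at an unadjusted p under 0.05). Of 8 endothelial markers, all tested, 0 rose and 1 fell: Pecam1 averaged 7.93 ± 0.08 in 2MT hearts and 8.26 ± 0.14 in saline hearts (SD, n = 3 each, limma adjusted p = 0.020). Kdr and Emcn lay the other way without a call (limma adjusted p = 0.16 for both), and the mean of the list was 7.29 to 7.46 in 2MT hearts and 7.27 to 7.40 in saline hearts. Of 8 macrophage markers, all tested, 0 rose and 1 fell: Lyve1 averaged 7.69 ± 0.05 in 2MT hearts and 8.03 ± 0.21 in saline hearts (SD, n = 3 each, limma adjusted p = 0.035), and the mean of the list was 6.20 to 6.41 in 2MT hearts and 6.22 to 6.47 in saline hearts. Both calls were lost with some arrays left out: limma adjusted p for Pecam1 was 0.0858 to 0.112 without 2MT 2, 2MT 3, saline 1 or saline 2, and for Lyve1 0.0691 to 0.147 without any array but saline 2. Lyve1 also lost its call with no dim filter (0.059), without the variance trend (0.12) and with every probe set tested on its own (0.083), all limma adjusted p values. Of 17 alternative settings, Pecam1 was called in 11 and Lyve1 in 9. The settings in which Pecam1 was not called thus go beyond the array removals named above. The part of these markers in the values below was not tested. All 10 ventricular cardiomyocyte markers were above the floor, and their mean was 11.70 to 11.73 in 2MT hearts and 11.62 to 11.75 in saline hearts. In bulk tissue, fewer cells of a type and less RNA per cell cannot be told apart.

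Of the 10 genes 8 lay above the floor and Fgf12 and Fgfr2 below it. Of the 8, 1 gene, Fgf16, met the rule, which 4.63% of all tested genes met, and in 3 genes, Fgf16, Fgf9 and Fgfr3, the groups did not overlap, as in 21.1% of all tested genes. Both counts come from the contrast on which the genes were selected, so nothing is read from them. The median log2 difference was 0.18 over the 8 genes and 0.00 over all genes tested.

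**Figure D1:**
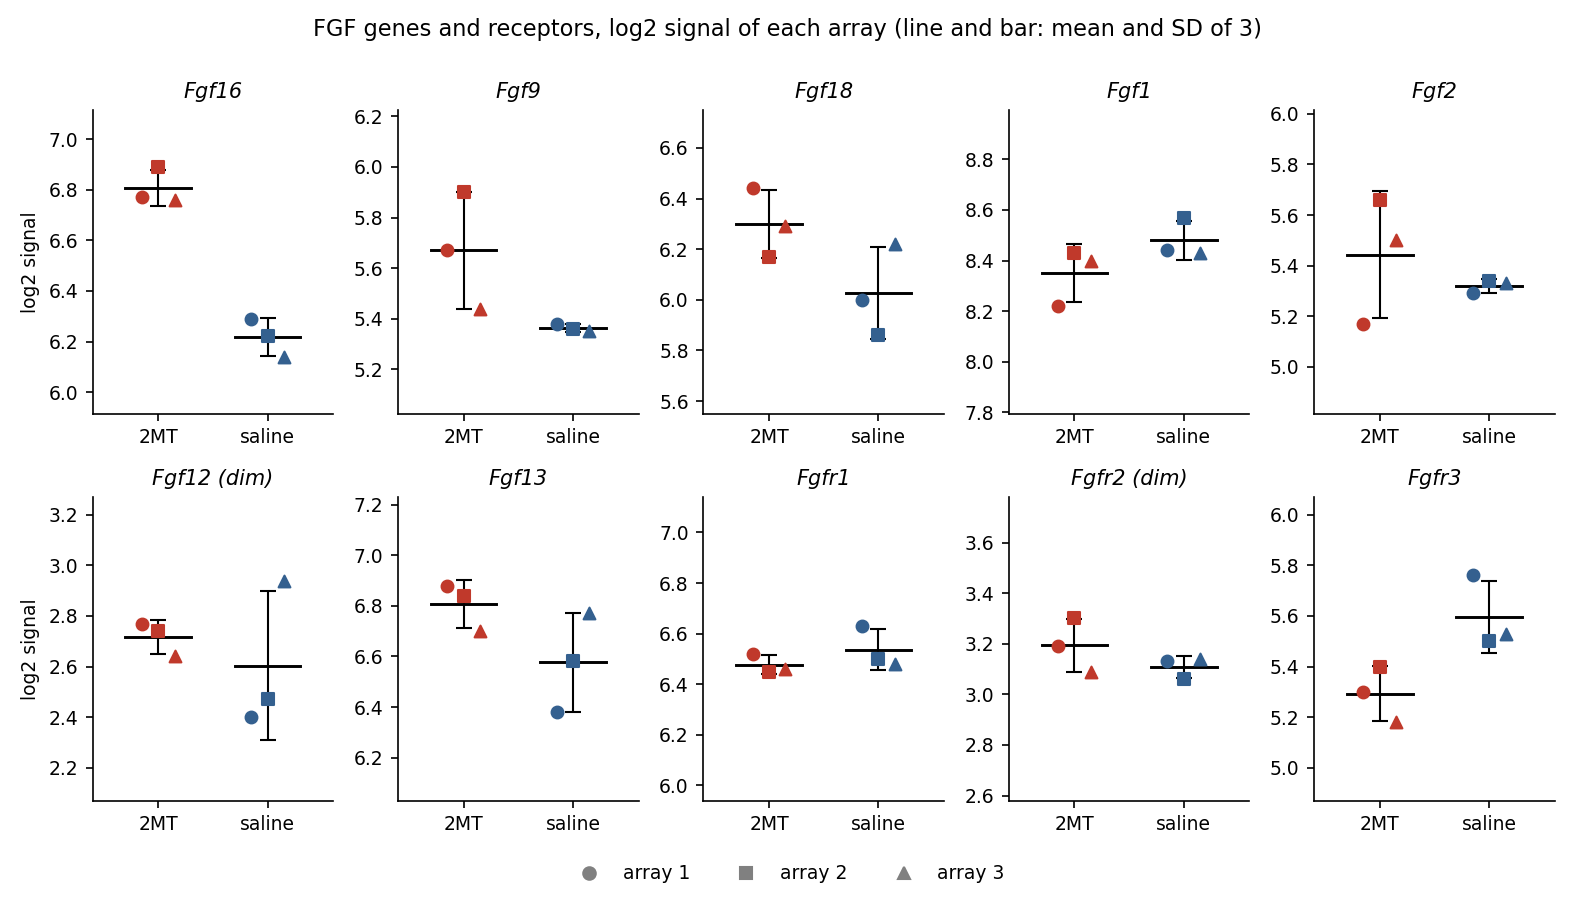
Log2 signal (vertical axis) of the 10 genes on each of the 6 arrays, with 2MT hearts in red left of saline hearts in blue, the marker giving the array number and the line and bar the mean and SD of 3 arrays. Every panel spans the same log2 range around its own centre. Fgf16 is the gene whose groups lie farthest apart, at 6.76 to 6.89 in 2MT hearts and 6.14 to 6.29 in saline hearts.

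Fgf16 was the ligand that differed most. Fgf16 is made mainly by cardiomyocytes in the mouse heart after birth, and in mice its loss worsens hypertrophy and fibrosis under angiotensin II. Its log2 signal was 6.77, 6.89 and 6.76 in 2MT hearts, against 6.29, 6.22 and 6.14 in saline hearts. Every 2MT array lay above every saline array, and the gap between the groups was wider than the spread inside either. The means were 6.81 ± 0.07 in 2MT and 6.22 ± 0.08 in saline (SD, n = 3 each), a log2 difference of 0.59 ± 0.07 (SE), or 1.51-fold. In the order of all 10547 log2 differences it stood at rank 24 from the top. The difference ran from 0.50 to 0.63 over the 17 alternative settings, in all of which it met the rule. These settings reuse the arrays on which the gene was selected, so they describe the processing and are no support. The difference of Fgf16 was 0.59 without saline 2, the array with more Myl7 and Myl4 signal, and 0.55 without saline 3.

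The genes beside Fgf16 in the mouse gene table showed no call. Atrx, a chromatin remodeller and its nearest protein-coding neighbour on one side, was at 7.21 in 2MT hearts and 7.23 in saline hearts (log2 difference -0.02 ± 0.06, SE, adjusted p = 0.90 in limma). Cypt2, the nearest on the other side, was dim, at 3.14 in 2MT hearts and 3.11 in saline hearts.

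Fgf9, the closest relative of Fgf16 among the 10 genes and a signal from the epicardium and endocardium in the embryonic mouse heart, was at 5.67, 5.90 and 5.44 in 2MT hearts, against 5.38, 5.36 and 5.35 in saline hearts. The saline arrays were nearly equal, while the 2MT arrays spread upwards from just above them. The means were 5.67 ± 0.23 in 2MT and 5.36 ± 0.02 in saline (SD, n = 3 each), and the log2 difference was 0.31 ± 0.11 (SE). It did not meet the rule, and it ran from 0.19 without 2MT 2 to 0.42 without 2MT 3. Fgf20, the third gene of that subfamily, was dim, at 3.76, 3.72 and 3.83 in 2MT hearts and 3.94, 4.04 and 4.00 in saline hearts. Its groups did not overlap, with 2MT lower, and it was not called when the dim genes were included (limma adjusted p = 0.43). Of 8 epicardial and mesothelial markers 3 were tested and 0 called in limma (0 also with an unadjusted p under 0.05). The mean of the list was 3.95 to 4.17 in 2MT hearts and 4.03 to 4.10 in saline hearts.

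Fgf18, a ligand of the subfamily of Fgf8 and Fgf17 that is best known from bone and lung, was at 6.44, 6.17 and 6.29 in 2MT hearts, against 6.00, 5.86 and 6.22 in saline hearts. Only saline 3 reached into the 2MT range. The log2 difference was 0.27 ± 0.10 (SE) and did not meet the rule with all arrays. Without saline 3 it was 0.37 and did. Of its relatives, Fgf8 was at 4.80 to 4.86 in 2MT hearts and 4.80 to 4.84 in saline hearts, and Fgf17 was below the floor.

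Fgf1 and Fgf2 are the acidic and basic founding members of the family, and both lessen ischaemic injury when given to rodent hearts. Fgf1 was at 8.22, 8.43 and 8.40 in 2MT hearts, against 8.44, 8.57 and 8.43 in saline hearts. The groups touched, and the log2 difference was -0.13 ± 0.07 (SE), -0.065 without 2MT 1 and -0.085 without saline 2. Fgf2 was at 5.17, 5.66 and 5.50 in 2MT hearts, against 5.29, 5.34 and 5.33 in saline hearts. Here the 2MT arrays lay on both sides of the saline arrays, and the log2 difference was 0.12 ± 0.11 (SE), 0.015 without 2MT 2 and 0.26 without 2MT 1. Neither gene met the rule in any of 17 alternatives. In the gene table Fgf2 overlaps Nudt6, which was at 6.07 in 2MT hearts and 6.00 in saline hearts (limma adjusted p = 0.73), and Fgf1 overlaps Arhgap26, which was at 8.15 in 2MT hearts and 8.26 in saline hearts (limma adjusted p = 0.46).

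Fgf2 and Fgf9 shared a wider scatter among 2MT arrays. The SD of Fgf2 was 0.25 in 2MT hearts and 0.03 in saline hearts, an excess that 0.569% of all tested genes equalled or passed. For Fgf9 the excess was equalled or passed by 0.73% of tested genes. Both genes were highest on 2MT 2, but their lowest 2MT arrays differed, 2MT 1 for Fgf2 and 2MT 3 for Fgf9. For the other 6 tested genes the share was between 24.7% and 87.3%. With 3 arrays a group an SD is loosely known, and these shares are descriptions.

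Among the intracellular members, Fgf13 is the main FGF homologous factor of adult mouse ventricular myocytes, while Fgf12 takes that place in human ventricle. Fgf13 was at 6.88, 6.84 and 6.70 in 2MT hearts, against 6.38, 6.58 and 6.77 in saline hearts. Saline 3 was again the array that reached into the 2MT range. The log2 difference was 0.23 ± 0.09 (SE) and did not meet the rule with all arrays, and it was 0.33 and did without saline 3. Without saline 1 it was 0.13. Fgf12 was dim in both groups, at 2.77, 2.74 and 2.64 in 2MT hearts and 2.40, 2.47 and 2.94 in saline hearts, with saline 3 the highest of the 6 arrays.

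Leaving out saline 3 thus took the count to 3 of the 8 genes, Fgf16, Fgf13 and Fgf18, while the share over all genes went to 6.14%. Nothing is read from this count either, since the genes were selected on the same contrast. The part that the erythrocyte signal of saline 3 has in these values was not tested.

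The related Fgf14 was just above the floor, at 4.33, 4.36 and 4.79 in 2MT hearts and 4.39, 4.25 and 4.00 in saline hearts (log2 difference 0.28 ± 0.14, SE, limma adjusted p = 0.33). Its mean was 4.49 in 2MT hearts and 4.21, under the floor, in saline hearts. It passed the filter only through the 2MT group, so the size of its difference is uncertain. The difference was 0.13 without 2MT 3, 0.17 without saline 3 and 0.16 with an offset of 16 before log2. Fgf11 was dim. Of 13 genes for the sodium channels these factors bind and for another partner of theirs, 10 had a probe set with 1 symbol and 1 was bright enough to test, Scn4b, a beta subunit. It had a log2 difference of 0.07 ± 0.14 (SE, limma adjusted p = 0.86).

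Of the receptors, Fgfr3 had the largest difference. Fgfr3 is best known for restraining the growth of cartilage, and Fgf9 and Fgf18 are among its ligands. It was at 5.30, 5.40 and 5.18 in 2MT hearts, against 5.76, 5.50 and 5.53 in saline hearts. All 2MT arrays were below all saline arrays, and 2MT 2 came within 0.10 of saline 2. The means were 5.29 ± 0.11 in 2MT and 5.60 ± 0.14 in saline (SD, n = 3 each), a log2 difference of -0.30 ± 0.10 (SE). It did not meet the rule with all arrays or in any of 17 alternatives, in which it ran from -0.36 to -0.22.

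Fgfr1, the main FGF receptor of cardiomyocytes, was at 6.52, 6.45 and 6.46 in 2MT hearts, against 6.63, 6.50 and 6.48 in saline hearts. The groups overlapped and the log2 difference was -0.06 ± 0.07 (SE), or -0.01 without saline 1. Its 95% interval ran from -0.22 to 0.10. Fgfr2 was dim, at 3.19, 3.30 and 3.09 in 2MT hearts and 3.13, 3.06 and 3.14 in saline hearts. Each receptor gene has 1 value, so its b and c splice forms, which bind different ligands, were not told apart. Outside the 10 genes, Fgfr4 was dim, at 3.55, 3.65 and 3.53 in 2MT hearts and 3.39, 3.22 and 3.35 in saline hearts. Its groups did not overlap, and it was not called when dim genes were included (limma adjusted p = 0.39). Fgfrl1, a receptor without a kinase domain, was at 5.84 to 5.92 in 2MT hearts and 5.74 to 5.83 in saline hearts (log2 difference 0.09 ± 0.08, SE, limma adjusted p = 0.61).

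**Figure D2:**
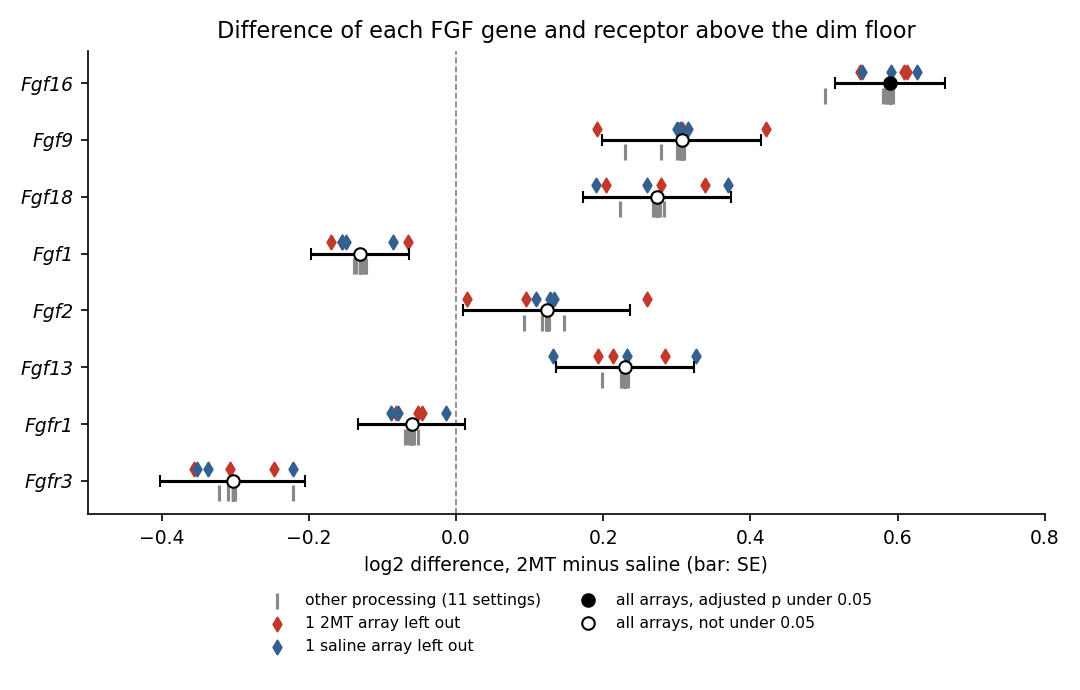
Log2 difference, 2MT minus saline (horizontal axis), of the 8 genes above the dim floor, with the SE as a bar. Grey ticks are the other processing settings and diamonds the values with 1 array left out, red for a 2MT array and blue for a saline array. Fgf16 keeps a difference of 0.50 or more in every setting. Fgfr1 and Fgf2 come closest to 0, at -0.01 without saline 1 (a blue diamond) and 0.015 without 2MT 2 (a red diamond).

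The wider FGF pathway was read from 7 lists of 118 genes that are not among the 10, of which 108 had a probe set with 1 symbol and 68 were bright enough to test. Of the 68, 3 rose and 2 fell, 5 in all, where 4.63% of all tested genes were called. The groups did not overlap in 16 of the 68, where 21.1% of all tested genes did not overlap. The lists were drawn up with earlier results on Dusp7, Myc and Pik3r1 known, so their 3 calls are no independent evidence. The median log2 difference was 0.03 over the 68 and 0.00 over all genes tested.

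Most other ligands were dim: 12 of 15 lay below the floor, and of Fgf8, Fgf14 and Fgf22 none was called in limma (0 also at an unadjusted p under 0.05). The dim ones include Fgf7 and Fgf10, ligands from mesenchyme that act on epithelium, and the hormone-like Fgf21, Fgf23 and Fgf15. Fgf21, a fasting hormone of the liver, was at 3.67 to 3.74 in 2MT hearts and 3.42 to 3.88 in saline hearts. Their co-receptors Kl and Klb, which the hormone-like FGFs need to signal, were dim too, at 2.91 to 3.20 over the 2MT arrays and 2.87 to 3.33 over the saline arrays.

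Of 13 tested receptors, co-receptors and binding proteins, 1 rose and 0 fell. Cdh2, the cadherin of the cardiomyocyte junction, which can bind Fgfr1 in other cells, was at 10.15, 10.21 and 10.19 in 2MT hearts, against 9.95, 10.01 and 9.97 in saline hearts. The groups did not overlap, and the log2 difference was 0.21 ± 0.04 (SE, limma adjusted p = 0.016). The call was lost without saline 1 (0.066), 2MT 2 (0.075) or 2MT 3 (0.079) and without the variance trend (0.14), all adjusted p values of limma. Syndecans and glypicans, the surface carriers of heparan sulphate, gave 0 calls among 7 tested in limma (0 also at an unadjusted p under 0.05), with differences between -0.11 and 0.14. Of 10 tested enzymes that make or edit heparan sulphate, 0 were called in limma and 1, Extl3, had an unadjusted p under 0.05. Extl3 was at 6.90 to 7.10 in 2MT hearts and 6.65 to 6.85 in saline hearts (log2 difference 0.23 ± 0.08, SE, adjusted p = 0.13 in limma).

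Of 17 tested genes of receptor-proximal signalling and the RAS-ERK cascade, 1 rose and 1 fell. Pik3r1, the regulatory subunit of phosphoinositide 3-kinase, was at 9.43, 9.37 and 9.24 in 2MT hearts, against 8.83, 8.96 and 9.11 in saline hearts, a log2 difference of 0.38 ± 0.07 (SE, limma adjusted p = 0.0065, and 0.056 without the variance trend). Ptpn11, the phosphatase SHP2 that carries FGF receptor signals to RAS, was at 8.75, 8.53 and 8.74 in 2MT hearts, against 9.02, 8.97 and 8.89 in saline hearts, and fell by 0.29 ± 0.07 (SE, limma adjusted p = 0.021). In both genes the groups did not overlap. Ptpn11 lost its call without saline 1 (0.094), saline 2 (0.072) or 2MT 2 (0.098), without the variance trend (0.11) and with every probe set tested on its own (0.054), all limma adjusted p values. The other 15 had differences between -0.13 and 0.19. Frs2, the adaptor of FGF receptors, was not analysed here.

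Of 12 tested feedback inhibitors of the pathway, 1 rose and 0 fell. That gene was Dusp7, an ERK phosphatase, which was at 8.44, 8.56 and 8.45 in 2MT hearts, against 7.46, 7.60 and 7.73 in saline hearts (log2 difference 0.89 ± 0.07, SE, limma adjusted p = 5.3e-06). Dusp6, the ERK phosphatase usually induced by FGF signalling, was on the other side, at 5.68, 5.74 and 5.83 in 2MT hearts and 6.06, 5.87 and 5.98 in saline hearts. Its groups did not overlap, and it did not pass (log2 difference -0.22 ± 0.08, SE, limma adjusted p = 0.18). The Sprouty genes, which block receptor tyrosine kinase signals to ERK, were not called. Spry2 was at 5.58 to 5.71 in 2MT hearts and 5.18 to 5.59 in saline hearts (limma adjusted p = 0.20), and Spry1 and Spry4 had adjusted p values of 0.41 and 0.91 in limma. Il17rd, a membrane inhibitor of FGF receptors, had a log2 difference of 0.09 ± 0.10 (SE, limma adjusted p = 0.72). It was 0.02 without saline 3, 0.04 without 2MT 2, 0.17 without saline 2 and 0.06 with the offset of 16.

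Of 12 tested transcription factors that ERK induces or acts on, 0 rose and 1 fell. Of the 12, the mean was higher in 2MT hearts for 6 and lower for 6. The gene that fell was Myc, at 4.21, 4.27 and 3.99 in 2MT hearts, all under the dim floor, against 5.70, 5.31 and 5.78 in saline hearts. It passed the filter only through the saline arrays, so its call supports nothing about the list, and the size of the log2 difference, -1.44 ± 0.13 (SE), is uncertain. With an offset of 16 added before log2 it was -0.93. Etv5, a factor that FGF signals induce in many tissues, was at 5.21, 5.46 and 5.33 in 2MT hearts and 5.38, 5.56 and 5.73 in saline hearts (log2 difference -0.22 ± 0.11, SE, limma adjusted p = 0.29, and -0.14 without saline 3). Its relative Etv4 was dim. Egr1, an immediate early gene downstream of ERK, averaged 4.56 ± 0.08 in 2MT hearts and 4.89 ± 0.10 in saline hearts (SD, n = 3 each), and the groups did not overlap (log2 difference -0.33 ± 0.10, SE, limma adjusted p = 0.086). Ets2, a factor that ERK phosphorylates, lay the other way, at 7.40, 7.27 and 7.25 in 2MT hearts and 7.11, 7.24 and 6.94 in saline hearts, also with no overlap (log2 difference 0.21 ± 0.08, SE, limma adjusted p = 0.18).

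**Figure D3:**
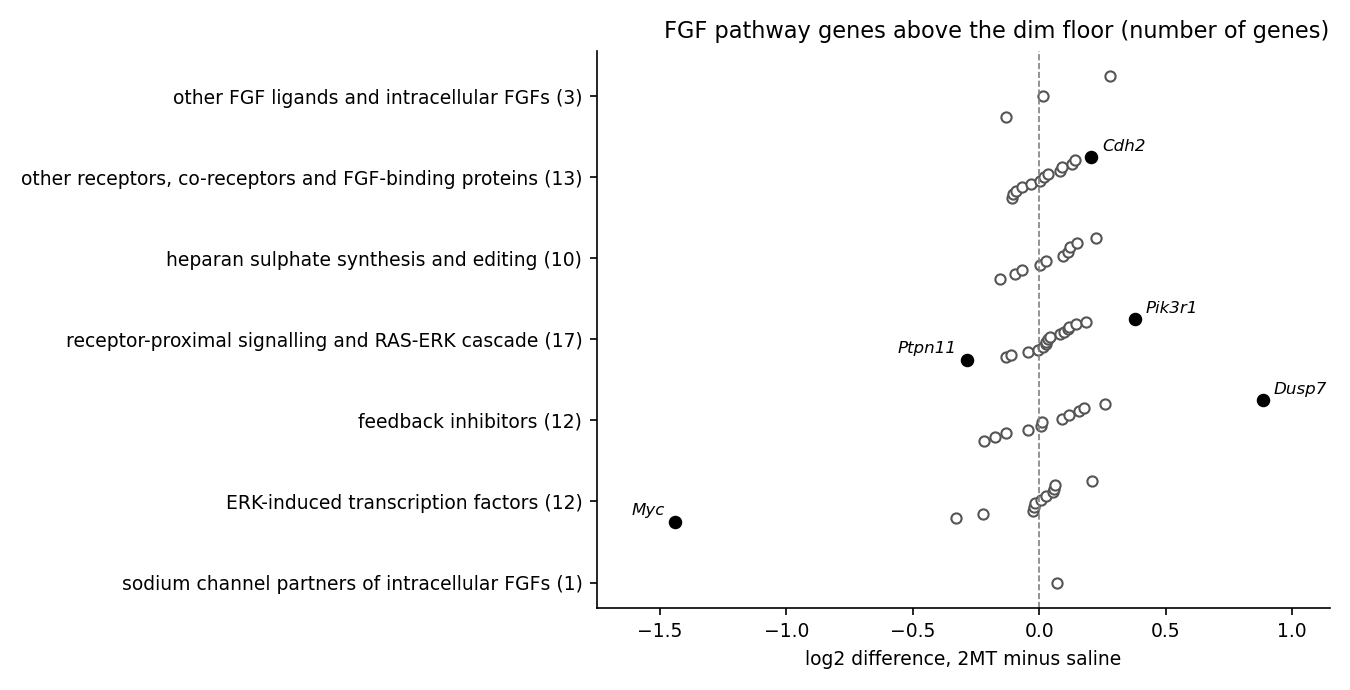
Log2 difference, 2MT minus saline (horizontal axis), of the 68 pathway genes above the dim floor, 1 point a gene, by list with its number of genes in brackets. Filled points are the 5 genes that met the rule (Dusp7, Pik3r1 and Cdh2 to the right, Ptpn11 and Myc to the left), and open points are the others.

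The genes with the pattern most like that of Fgf16 were found by the root mean square difference of the 6 values, after each gene was centred on its own mean. They were Magi3 (0.04), Gskip (0.06), Phyhip (0.07), Phldb2 (0.08) and Gramd1b (0.08), in log2 units, where the median over all other tested genes was 0.31. The measure favours genes with a difference of the same size, and each of these 5 was higher in every 2MT array. Magi3, a scaffold protein of cell junctions, averaged 7.39 ± 0.07 in 2MT hearts and 6.87 ± 0.09 in saline hearts (SD, n = 3 each). Gskip, which binds protein kinase A and GSK3, averaged 5.18 ± 0.13 in 2MT hearts and 4.63 ± 0.01 in saline hearts (SD, n = 3 each). The log2 differences of the 5 genes were between 0.47 and 0.55.

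**Figure D4:**
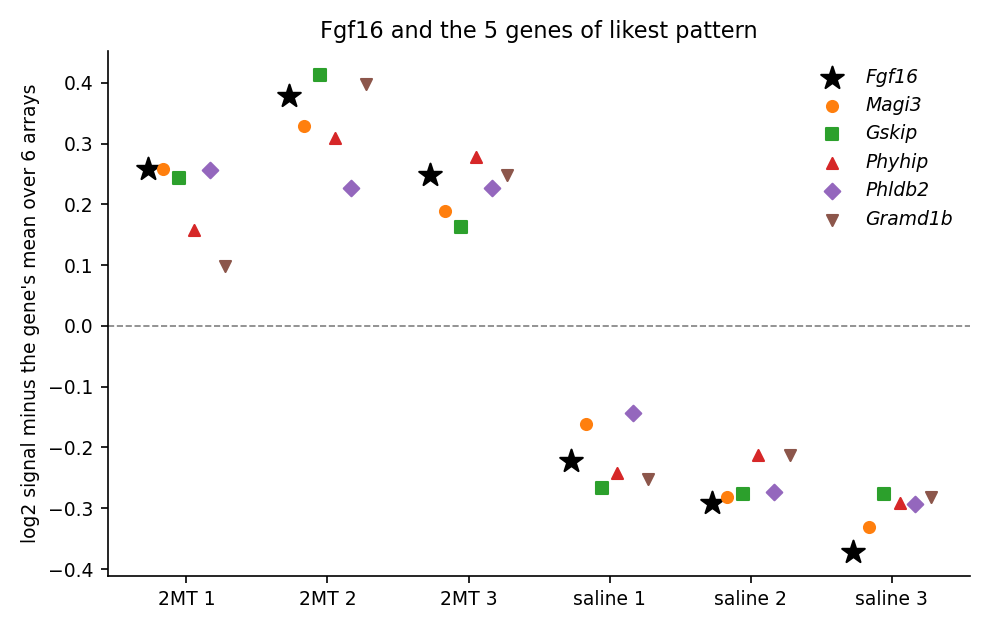
Log2 signal minus each gene's own mean over the 6 arrays (vertical axis) for Fgf16 (black stars) and the 5 genes of likest pattern, on the 2MT arrays and then the saline arrays. Values are above 0 on all 2MT arrays and below 0 on all saline arrays, and Fgf16 is highest on 2MT 2, at 0.38, and lowest on saline 3, at -0.37.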

How the data were processed

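The deposited values are 1 log2 signal per probe set and array. Per the submitters' processing notes the authors used MAS5, with no version or role given, and no other step of their normalization is given in the sources used here. The log base was inferred from the range, 0.51 to 13.5, with medians of 4.32 to 4.37 per array, so no further scaling was applied. No detection call was used, so how far a signal stands above background is unknown and differences of dim genes may come out too small. Precision is limited by the number of arrays. Probe sets with 1 symbol (21789 of 28944) were named from the platform annotation, and a gene is its probe set with the highest mean. The 10 genes, the pathway and marker lists and the named genes (the 10, called list genes, a fixed set and the 5 genes of likest pattern) were chosen with earlier results of these data known, and Egr1, Ets2, Extl3 and the markers named were singled out after their values were seen. No coordinates are given because no genome build is named. Neighbouring genes come from the RefSeq gene table of GRCm38.p6. The comparison used R 4.3.3 and limma 3.58.1, with lmFit on the group alone and a moderated two-sided test (eBayes, trend on mean signal), and the p-values were adjusted over 10547 genes by Benjamini-Hochberg. An exact permutation test of 3 against 3 cannot go below 0.1. The procedure was tested on simulated data. Alternatives changed normalization, dim filter, offset, choice of probe set, variance model, replicate block and the arrays used. Figures were drawn with matplotlib 3.10.9.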

Additional observations from a re-analysis of the deposited data

How the results depend on the processing

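Genes called over the whole table numbered 488, against 292 without the variance trend and 262 to 648 with 1 array left out (276 without 2MT 2, 262 without 2MT 3, 298 without saline 1). The count among the 8 FGF genes was 1 in every setting but the one without saline 3, so 1 to 3 with 1 array left out. The count of pathway genes was 5, against 2 without the variance trend and 3 to 5 with 1 array left out. The direction of all 8 FGF genes held in the 17 alternatives. Spry4, at -0.04 with all arrays, ran from -0.125 to 0.0567 with 1 array left out, turning to 0.055 without 2MT 3 and 0.0567 without saline 2. The cause was not tested. Deviations of same-numbered arrays from their group means had correlations of 0.07, 0.04 and 0.02. With 3 arrays a group, such values cannot show whether the number pairs the arrays, so nothing is concluded on pairing. With the replicate block 586 genes, 1 FGF gene and 5 pathway genes were called. Of 42 dim FGF and pathway genes 0 were called by limma with no dim filter, and 4 had an unadjusted p under 0.05.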
